A study of Mus musculus with 8 samples.

Results

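The genes described here are 9 antiviral genes that interferon induces: the oligoadenylate synthetases Oas1a, Oas1g, Oas2 and Oas3, the synthetase-like genes Oasl1 and Oasl2, the dynamin-like GTPases Mx1 and Mx2, and Rsad2, which encodes viperin. They were taken by symbol from a table of 23997 genes, all 9 were found, and all 9 passed the filter on low values that left 12565 genes for testing. RNA came from bone marrow of C57BL/6 mice that had succumbed to a transplanted leukemia. The transductions compared were AML1-ETO + Meis2 (AE+Meis2, 3 libraries, median latency 171 days), AML1-ETO9a + Meis2 (AE9a+Meis2, 3 libraries, 102 days) and AML1-ETO9a (AE9a, 2 libraries, 138 days). In every group the transduced cells were marrow from mice given 5FU, cultured with IL3, IL6 and SCF, and transplanted into lethally irradiated mice. AML1-ETO is the fusion of the blood transcription factor RUNX1 with the corepressor RUNX1T1, AML1-ETO9a is a shorter splice form of it, and Meis2 is a homeobox transcription factor. The share of leukemic cells in each marrow is not stated, and host or other non-leukemic cells were not separated. The labels do not say whether replicates came from separate donors or transductions, so the p-values reflect only how far these libraries differ, which may be partly technical.

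Oligoadenylate synthetases are sensors of double-stranded RNA. When they bind it they join ATP into short oligoadenylates, which act as a second messenger in antiviral defence. The synthetases, the Mx proteins and viperin are all kept low in resting cells and are induced by interferon, in part through the interferon-stimulated response element (ISRE) in promoters. In C57BL/6 and many other laboratory strains the Mx genes carry defective alleles, and RefSeq (GRCm38.p6) lists both Mx1 and Mx2 as transcribed pseudogenes. Their RNA levels below are therefore levels of transcripts and not of a working antiviral protein.

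Oas2, Oas3, Oas1g and Oas1a lie together on chromosome 5, within the stretch from 120730333 to 120907544, while Oasl2 (114896926 to 114912245) and Oasl1 (114923143 to 114937911) are neighbours elsewhere on chromosome 5. Mx1 (97447035 to 97462906) and Mx2 (97536081 to 97560901) are on chromosome 16, and Rsad2 (26442743 to 26456452) is on chromosome 12. These are RefSeq positions on GRCm38.p6, the assembly that mm10 names. Promoter windows from RefSeq, 300 bases long and ending 50 bases after a start site, were matched for 6 members (Oas1a, Oas1g, Oas3, Oasl1, Oasl2 and Rsad2). The core of the ISRE, read as GAAA, any 2 bases and GAAA again and searched on both strands, was present in 4 of these 6 windows, against 3.44% of all 32851 promoter windows of the same 300 bases. The members were chosen as genes that interferon induces, and Oas1a and Oas1g are close copies with the same run of matches. The share is therefore no test of the set. These 4 windows are shown because they carry the element through which the family is known to be induced, with the matches in capitals. Coordinates are chr5:120907476-120907775 for Oas1a, chr5:120887564-120887863 for Oas1g, chr5:120777610-120777909 for Oas3 and chr12:26456403-26456702 for Rsad2, and each is printed 5′ to 3′ along its gene, which is on the minus strand in all 4.
Oas1a: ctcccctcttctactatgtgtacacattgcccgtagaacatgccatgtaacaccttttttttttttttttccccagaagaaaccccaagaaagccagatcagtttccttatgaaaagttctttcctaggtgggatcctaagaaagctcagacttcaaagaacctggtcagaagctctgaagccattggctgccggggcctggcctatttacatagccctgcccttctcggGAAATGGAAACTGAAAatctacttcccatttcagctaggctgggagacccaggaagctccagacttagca
Oas1g: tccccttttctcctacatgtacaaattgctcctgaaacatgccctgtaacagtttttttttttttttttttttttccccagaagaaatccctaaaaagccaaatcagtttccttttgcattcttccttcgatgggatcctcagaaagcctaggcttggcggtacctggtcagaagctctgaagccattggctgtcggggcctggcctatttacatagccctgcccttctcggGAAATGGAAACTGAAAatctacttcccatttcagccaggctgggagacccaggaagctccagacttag
Oas3: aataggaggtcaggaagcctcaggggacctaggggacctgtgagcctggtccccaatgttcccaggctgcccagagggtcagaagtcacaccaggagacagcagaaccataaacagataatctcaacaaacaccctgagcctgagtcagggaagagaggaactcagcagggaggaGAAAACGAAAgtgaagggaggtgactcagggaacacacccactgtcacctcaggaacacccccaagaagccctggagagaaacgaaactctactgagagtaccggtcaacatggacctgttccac
Rsad2: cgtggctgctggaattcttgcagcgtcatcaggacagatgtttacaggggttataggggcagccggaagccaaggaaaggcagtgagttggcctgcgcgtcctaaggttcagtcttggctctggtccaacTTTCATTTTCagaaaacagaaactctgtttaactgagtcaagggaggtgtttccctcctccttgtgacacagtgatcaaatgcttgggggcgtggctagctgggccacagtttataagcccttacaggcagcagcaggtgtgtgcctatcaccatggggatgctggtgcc
In Oas1a and Oas1g a pair of matches on the gene's own strand overlaps by some bases and reads through GAAATGGAAA and GAAACTGAAA, starting at -20 and -14 in Oas1a and at -18 and -12 in Oas1g, counted from the start site of the window. The match in Oas3, GAAAACGAAA, starts at -75 on the gene's strand. In Rsad2 the match reads GAAAATGAAA on the opposite strand, and its first base along the window is at -120. The windows of Oasl1 and Oasl2 hold no such match. A second motif, the gamma-activated sequence TTCNNNGAA, is in 8.3% of all promoter windows and, among the 6, in Oas1a only, at -98, where it does not overlap the ISRE core. A match is a run of letters and was not tested for binding.

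The libraries differ in ways that touch these genes. Library depth cannot be read from FPKM (fragments scaled to transcript length and to the library's mapped fragments), but the most common ratio of low values between libraries put their relative depth over about an 8.26-fold range, with AE9a replicate 1 the shallowest. That library also had many low values in gene families silent in marrow, so its place in this range is uncertain. Of 1536 genes from families silent in marrow (olfactory, vomeronasal, keratin-associated and defensin), AE9a+Meis2 replicate 3 had a value above 0 for 84.2%, with a mean of 0.461 FPKM, and replicate 1 of AE9a for 72.1%, with a mean of 0.597 FPKM. The other 6 libraries had 3.32% to 6.58%. The library labelled AE+Meis2 replicate 1 goes against its label: it had 21.6 FPKM of Runx1t1 against 223 and 218 FPKM in the other AE+Meis2 libraries, and 13.1 FPKM of Meis2, no more than AE9a replicate 2 (13.2 FPKM). Sex-linked genes differed with the group: AE+Meis2 libraries held 158, 176 and 7.06 FPKM of Eif2s3y, which lies on the Y chromosome, against at most 0.574 FPKM elsewhere. Xist, made from the inactive X of female cells, reached 1.93, 5.79 and 99.0 FPKM in the AE+Meis2 replicates, against at least 82.4 FPKM in every library of the other groups. The part of sex in the comparisons of AE+Meis2 was not tested. The marrow markers were present throughout, but their levels varied widely, also between replicates of a group. Summed neutrophil markers ran from 569 FPKM in AE+Meis2 replicate 2 to 37450 FPKM in AE+Meis2 replicate 3. Summed erythroid markers ran from 509 FPKM in AE+Meis2 replicate 3 to 5167 FPKM in the library labelled AE+Meis2 replicate 1. Megakaryocyte and platelet markers summed to 14.6 to 352 FPKM within AE+Meis2.

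The 9 genes were highest in the groups transduced with Meis2 and lowest in AE9a alone. Their mean level on the log2(FPKM + 1) scale was 4.48 ± 0.62 in AE+Meis2 (SD, n = 3), 3.85 ± 0.86 in AE9a+Meis2 (n = 3) and 2.08 ± 0.78 in AE9a (n = 2). By library it was 5.17, 4.00 and 4.27 in AE+Meis2, 3.08, 3.68 and 4.77 in AE9a+Meis2, and 2.64 and 1.53 in AE9a, so every AE9a library lay below every other library while the 2 groups with Meis2 overlapped. Of the 9 genes, 7 had their highest value of all in the library labelled AE+Meis2 replicate 1 and 2 in AE9a+Meis2 replicate 3, and 7 had their lowest value in AE9a replicate 2. Within AE9a+Meis2, all 9 were highest in replicate 3, the library with values in silent families. There the summed B cell markers (111 FPKM, against 53.6 and 29.0 FPKM) were also the highest of that group. So were those of T and NK cells (75.1 FPKM, against 13.0 and 44.3 FPKM), though Nkg7 of that list was higher in replicate 2. The same held for neutrophil (12470 FPKM, against 1895 and 5817 FPKM), plasmacytoid dendritic cell, and megakaryocyte and platelet markers. It did not hold for erythroid, monocyte and macrophage, mast and basophil, progenitor, or stroma and endothelium markers. The part of these cells was not tested. Within AE+Meis2 the members did not share an order: 7 were highest in replicate 1, while Oas1a and Oas1g were highest in replicate 3, where Mx1 and Mx2 were lowest. Within AE9a, Oas1g and Rsad2 were higher in replicate 2 and the other 7 in replicate 1. In bulk marrow, a lower level in each cell and fewer cells that express a gene cannot be told apart.

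**Figure D1:**
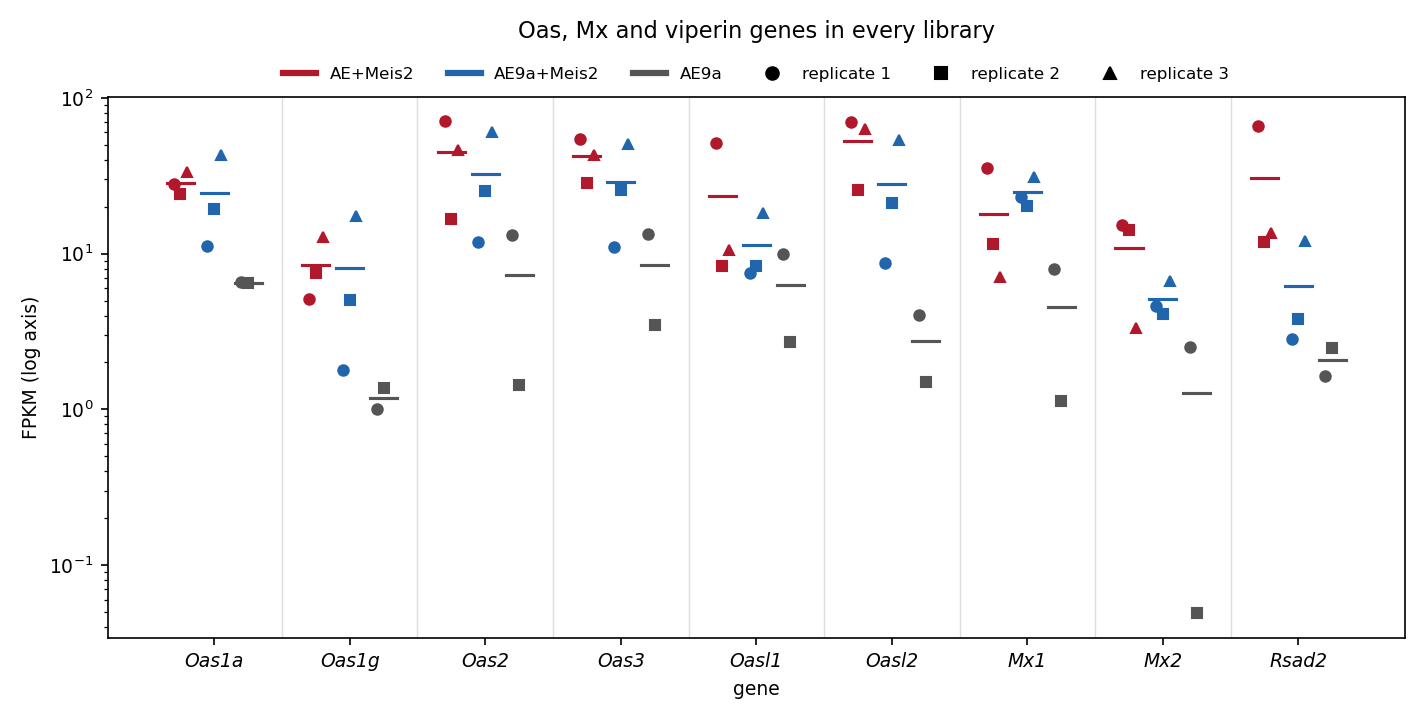
FPKM of the 9 genes (log axis) in every library. Points are libraries, coloured by group with AE+Meis2 on the left, AE9a+Meis2 in the middle and AE9a on the right of each gene, shapes give the replicate number and bars the group mean. AE9a libraries lie at the bottom of most genes, and Mx2 in AE9a replicate 2 (0.0491 FPKM) is the lowest value.

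Oas1a and Oas1g are close copies of the small synthetase. Oas1a had 28.1, 24.3 and 33.3 FPKM in AE+Meis2 and 11.2, 19.5 and 42.8 FPKM in AE9a+Meis2, against 6.56 and 6.44 FPKM in AE9a. No AE9a library reached any other library, and the AE9a pair was the tightest of any member. Oas1g was lower, at 5.14, 7.52 and 12.8 FPKM in AE+Meis2 and 1.79, 5.03 and 17.4 FPKM in AE9a+Meis2, against 1.01 and 1.37 FPKM in AE9a. Again both AE9a libraries were below all others, though AE9a+Meis2 replicate 1 came close to them. Of the 50-base windows of the annotated Oas1a transcript (GENCODE M21), 57.6% also occur in Oas1g, so the split of reads between these copies is uncertain. Their summed FPKM gave the same order, 33.2, 31.8 and 46.2 FPKM in AE+Meis2 and 13.0, 24.5 and 60.2 FPKM in AE9a+Meis2, against 7.56 and 7.81 FPKM in AE9a. Among the other members the share of windows found in another gene was at most 4.38%, between Mx2 and Mx1.

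Oas2 and Oas3 encode the larger synthetases, built from repeats of the same unit. Oas2 had 70.9, 16.7 and 46.6 FPKM in AE+Meis2 and 11.8, 25.2 and 60.6 FPKM in AE9a+Meis2, against 13.1 and 1.44 FPKM in AE9a. The AE9a libraries differed 9.12-fold between themselves, and AE9a replicate 1 overlapped AE9a+Meis2. Oas3 had 54.8, 28.3 and 43.1 FPKM in AE+Meis2 and 11.0, 25.7 and 50.4 FPKM in AE9a+Meis2, against 13.3 and 3.50 FPKM in AE9a. Its pattern was that of Oas2 with a smaller spread, and of all 9 members Oas3 was closest to the mean profile of the set (root mean square difference 0.249 log2).

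Oasl1 encodes a synthetase-like protein without synthetase activity that in mouse limits translation of Irf7, and Oasl2 is its paralog. Oasl1 had 51.3, 8.34 and 10.6 FPKM in AE+Meis2 and 7.49, 8.35 and 18.3 FPKM in AE9a+Meis2, against 9.93 and 2.71 FPKM in AE9a. All 3 groups overlapped, and the mean of AE+Meis2 rests on its replicate 1. Oasl2 separated AE9a most clearly, with 69.6, 25.5 and 62.7 FPKM in AE+Meis2 and 8.70, 21.2 and 53.6 FPKM in AE9a+Meis2, against 4.02 and 1.49 FPKM in AE9a. Even the lowest library of the other groups lay above both AE9a libraries.

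Mx1 and Mx2 had the same highest and the same lowest library within each group but differed in the order of the group means. Mx1 had 35.5, 11.5 and 7.09 FPKM in AE+Meis2 and 23.1, 20.4 and 31.3 FPKM in AE9a+Meis2, against 7.97 and 1.13 FPKM in AE9a. It was the only member whose mean was lower in AE+Meis2 (18.1 FPKM) than in AE9a+Meis2 (24.9 FPKM), where its 3 libraries lay within 1.54-fold of each other. Mx2 had 15.2, 14.1 and 3.32 FPKM in AE+Meis2 and 4.59, 4.07 and 6.66 FPKM in AE9a+Meis2, against 2.50 and 0.0491 FPKM in AE9a. Its AE9a libraries were both below all others and 50.99-fold apart. Rsad2, whose product viperin makes a nucleotide that stops viral polymerases, had 65.8, 11.9 and 13.5 FPKM in AE+Meis2 and 2.85, 3.78 and 12.0 FPKM in AE9a+Meis2, against 1.63 and 2.49 FPKM in AE9a. The library labelled AE+Meis2 replicate 1 stood well above every other library for Rsad2.

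AE9a+Meis2 was compared with AE9a to ask how marrows differ when Meis2 is added to the truncated fusion. All 9 members were higher in AE9a+Meis2, with log2 differences of 0.86 to 2.68 and a median of 1.65. These differences are of log2(FPKM + 1), a scale that makes changes of low genes look smaller. The median over all 12565 genes tested was -0.001, and 49.8% of them had a difference above 0. A difference above 1 was seen in 8 of the 9, against 3.45% of all genes. Over all genes no member passed limma with Benjamini-Hochberg adjustment (adjusted p = 1 for all 9), where 0.0239% of genes were called higher. At an unadjusted p under 0.05, limma had 4 of 9 higher (Oas1a, Oas3, Oasl2 and Mx1), against 1.93% of all genes. Every AE9a+Meis2 library was above both AE9a libraries for 6 of 9 (Oas1a, Oas1g, Oasl2, Mx1, Mx2 and Rsad2), against 13.1% of all genes.

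Oasl2 differed most, by 2.68 ± 0.76 (limma standard error, 95% confidence interval 0.90 to 4.47), followed by Mx1 at 2.54 ± 0.76 (0.75 to 4.33) and Oas2 at 2.23 ± 0.97 (-0.04 to 4.49). Oas3 differed by 1.66 ± 0.70 (0.03 to 3.30) and Oas1a by 1.57 ± 0.48 (0.43 to 2.71). Mx2 at 1.65 ± 0.70 (-0.003 to 3.30), Oas1g at 1.63 ± 0.74 (-0.11 to 3.37), Rsad2 at 1.03 ± 0.80 (-0.85 to 2.92) and Oasl1 at 0.86 ± 0.83 (-1.09 to 2.80) had, like Oas2, intervals that include 0, which makes 5 of 9. The median was 1.16 without AE9a+Meis2 replicate 3, 2.50 without AE9a replicate 1 and 1.24 without AE9a replicate 2, in which last case 0 of 9 had an unadjusted limma p under 0.05, against 1.32% of all genes. Without both libraries with values in silent families it was 1.99, with 5 of 9 at such a p, against 1.2% of all genes. Where an AE9a library is left out, the remaining AE9a library is assumed to vary like the libraries of the other groups. Without AE9a replicate 2, Oasl1 was at 0.08 and Oas2 at 0.96, and without both libraries with values in silent families Rsad2 was at 0.30.

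**Figure D2:**
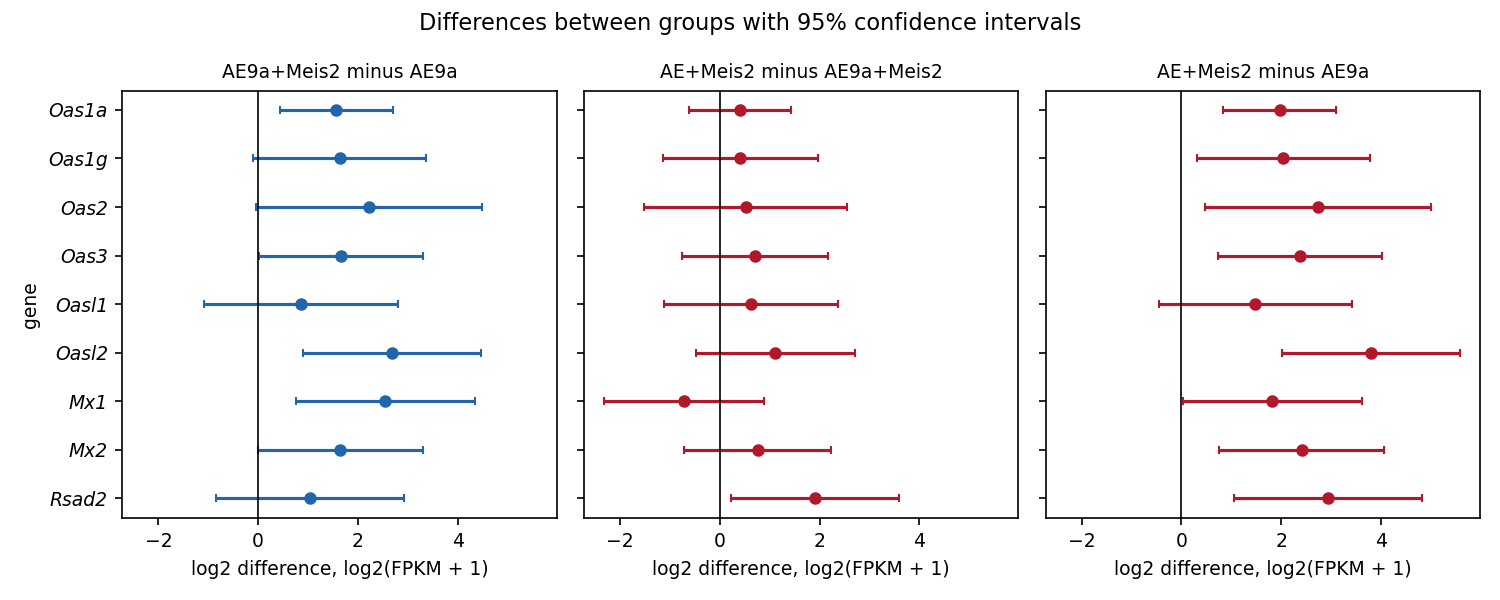
Log2 differences of the 9 genes on the log2(FPKM + 1) scale in the 3 comparisons, each named above its panel as first group minus second. Points are limma estimates and bars their 95% confidence intervals, before any adjustment over genes. Against AE9a all 18 estimates are above 0, while in AE+Meis2 minus AE9a+Meis2 only the interval of Rsad2 excludes 0.

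AE+Meis2 was then set against AE9a+Meis2, the full-length fusion against the truncated form with Meis2 transduced in both. Meis2 RNA itself differed between them, at 13.1, 38.2 and 81.5 FPKM in AE+Meis2 and 621.5, 603.5 and 1277 FPKM in AE9a+Meis2. The part of the Meis2 level in this comparison was not tested. Here 8 of 9 members were higher in AE+Meis2 and Mx1 was lower, with a median log2 difference of 0.63 against a median of 0.04 over all genes, 54.9% of which were above 0. The groups overlapped for all 9, whereas 7% of all genes were higher in every AE+Meis2 library and 6.49% lower. No member passed limma with Benjamini-Hochberg adjustment over all genes (adjusted p = 0.67 to 0.91), where 0.0318% of genes were called higher and 0.00796% lower. Rsad2 alone had an unadjusted limma p under 0.05, against 3.1% of all genes higher and 4.05% lower at that p. It differed by 1.90 ± 0.72 (0.22 to 3.59), and by 1.14 without the library labelled AE+Meis2 replicate 1, when 0 of 9 members had such a p, against 4.28% of all genes. The next largest was Oasl2 at 1.12 ± 0.68 (-0.48 to 2.71), while Mx1 differed by -0.72 ± 0.68 (-2.32 to 0.88). The remaining 6 lay between 0.40 and 0.76, each with an interval that includes 0. Leaving out 1 library turned the sign of 4 members: Oasl1 turned to -0.15 when the library labelled AE+Meis2 replicate 1 was left out, and Oas1a, Oas1g and Oas2 turned to -0.03, -0.23 and -0.03 without AE9a+Meis2 replicate 1. Without AE9a+Meis2 replicate 3 the median was 1.10, and 5 of 9 members no longer overlapped, against 10.1% of all genes.

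The third comparison, AE+Meis2 against AE9a, changes the fusion and Meis2 together and shares its libraries with the other 2 comparisons. All 9 members were higher in AE+Meis2, against 55.9% of all genes, and all 9 by more than 1 log2, against 4.08% of all genes, with differences of 1.48 to 3.80 and a median of 2.37 against 0.06 over all genes. None passed limma with Benjamini-Hochberg adjustment over all genes (adjusted p = 0.34 to 0.95), where 0.0239% were called higher and 0.00796% lower. At an unadjusted p under 0.05, limma had 8 of 9 higher, all but Oasl1, against 2.95% of all genes higher and 3.03% lower. The libraries did not overlap for 7 of 9, all but Oasl1 and Mx1, against 9.96% of all genes higher and 8.66% lower. Oasl2 differed by 3.80 ± 0.76 (2.01 to 5.58, limma adjusted p = 0.34), Rsad2 by 2.94 ± 0.80 (1.05 to 4.82), Oas2 by 2.74 ± 0.97 (0.48 to 5.01), Mx2 by 2.41 ± 0.70 and Oas3 by 2.37 ± 0.70. Oas1g at 2.04 ± 0.74, Oas1a at 1.97 ± 0.48, Mx1 at 1.82 ± 0.76 and Oasl1 at 1.48 ± 0.83 were the smaller differences. The median was 2.16 when the library labelled AE+Meis2 replicate 1 was left out, and 6 of 9 then had an unadjusted limma p under 0.05, against 4.27% of all genes. Without AE9a replicate 2, with the spread taken from the other groups, it was 1.54 and 3 of 9 had such a p, against 2.52% of all genes.

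**Figure D3:**
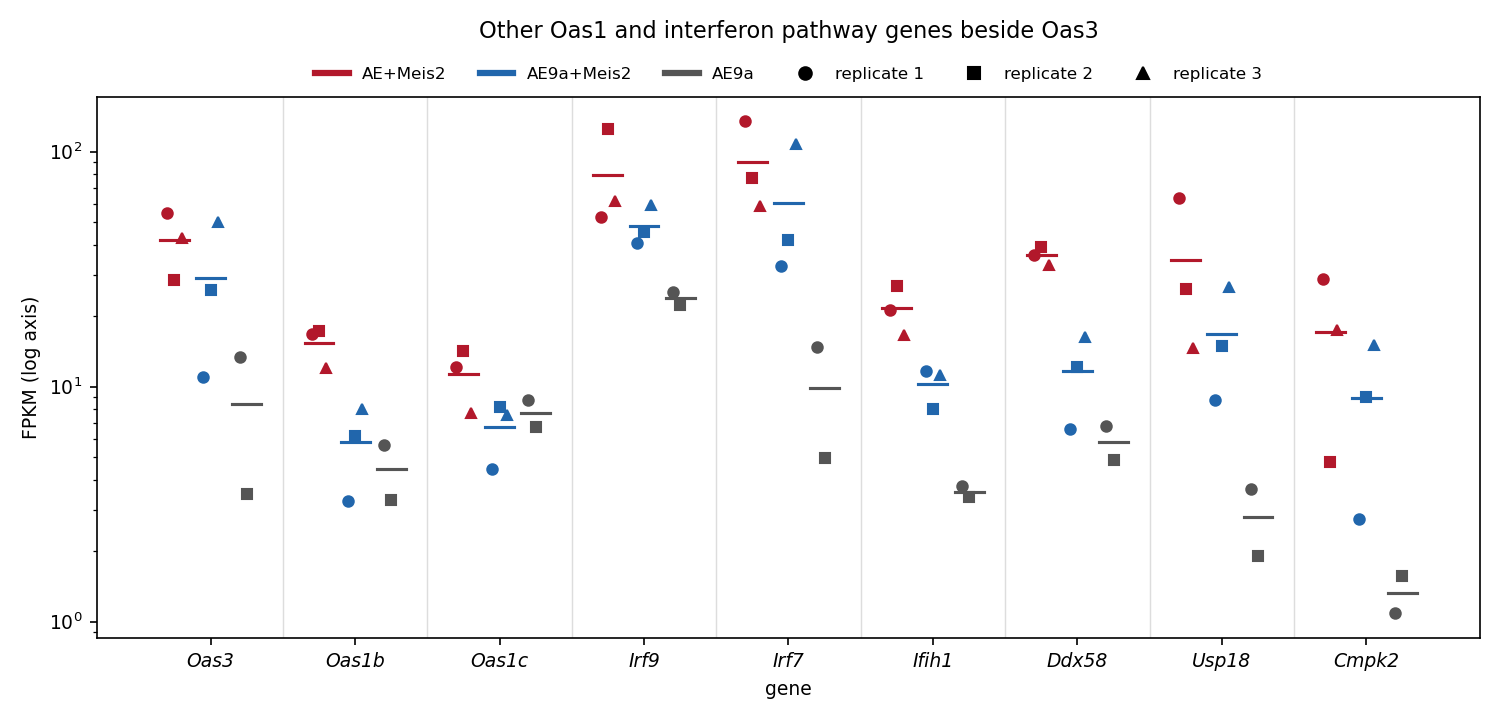
FPKM (log axis) of other Oas1 and interferon pathway genes in every library beside Oas3. Points are libraries, coloured by group with AE+Meis2 on the left, AE9a+Meis2 in the middle and AE9a on the right of each gene, shapes give the replicate number and bars the group mean. Irf7 is lowest in both AE9a libraries, at 14.8 and 4.96 FPKM, and Oas1b is highest in the 3 AE+Meis2 libraries.

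The other Oas1 genes of the locus had patterns of their own. Oas1d, Oas1e, Oas1f and Oas1h were below 1 FPKM in every library and were not tested, and the first 3 of them were highest in AE9a+Meis2 replicate 3, with values of 0.228 to 0.614 FPKM against a mean of 0.461 FPKM for silent families there. Oas1b, a transcribed pseudogene in RefSeq's C57BL/6J assembly and known as the flavivirus resistance gene in other mice, had 16.7, 17.3 and 12.0 FPKM in AE+Meis2 and 3.25, 6.18 and 8.01 FPKM in AE9a+Meis2, against 5.67 and 3.29 FPKM in AE9a. AE+Meis2 stood above both other groups without overlap, by 1.31 ± 0.34 over AE9a+Meis2 and 1.60 ± 0.38 over AE9a (limma adjusted p = 0.47 in both). Between AE9a+Meis2 and AE9a it overlapped (0.28 ± 0.38). Oas1c, which has the ISRE core in its promoter window like Oas1a, spanned 4.48 to 14.1 FPKM, 3.15-fold, and differed by -0.20 ± 0.34, 0.67 ± 0.30 and 0.47 ± 0.34 in the 3 comparisons in the same order as above.

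Upstream of these genes, the interferon genes themselves were at or near 0. Of 18 type I interferon ligand genes in the table, only Ifna14 passed the filter, through 1.12 FPKM in AE9a+Meis2 replicate 3 and 1.62 FPKM in AE9a replicate 1, the libraries with values in silent families, and it was listed at 0 in the other 6. Ifnb1 was at most 0.217 FPKM. The receptor chain Ifnar1 had 14.2, 14.9 and 18.7 FPKM in AE+Meis2 and 18.0, 15.2 and 17.0 FPKM in AE9a+Meis2, against 20.7 and 13.3 FPKM in AE9a, and Ifnar2 was at 32.9 to 99.9 FPKM.

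Irf9 and Stat2, transcription factors of the interferon response, were lowest in AE9a. Irf9 averaged 79.6 FPKM in AE+Meis2, 48.5 FPKM in AE9a+Meis2 and 23.8 FPKM in AE9a, and Stat2 29.9, 26.4 and 15.2 FPKM. Irf7, which amplifies interferon production and is itself induced by interferon, had 135, 77.5 and 58.6 FPKM in AE+Meis2 and 32.5, 41.9 and 107 FPKM in AE9a+Meis2, against 14.8 and 4.96 FPKM in AE9a. Its differences from AE9a were 3.15 ± 0.64 for AE+Meis2 and 2.47 ± 0.64 for AE9a+Meis2 (limma adjusted p = 0.34 and 1).

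A list of nucleic acid sensors with the adaptor Mavs and the RNA editing enzyme Adar had 7 genes tested. Of these, 7 were higher in AE9a+Meis2 than in AE9a (49.8% of all genes), 5 in AE+Meis2 than in AE9a+Meis2 (54.9%) and 6 in AE+Meis2 than in AE9a (55.9%), none past the threshold. Ifih1 had 21.2, 26.8 and 16.6 FPKM in AE+Meis2 and 11.6, 8.01 and 11.2 FPKM in AE9a+Meis2, against 3.78 and 3.38 FPKM in AE9a, with no overlap between any 2 groups. It differed by 2.27 ± 0.27 in AE+Meis2 minus AE9a (limma adjusted p = 0.11). Ddx58, another RNA helicase sensor, had 36.4, 39.3 and 32.9 FPKM in AE+Meis2, 6.59, 12.1 and 16.3 FPKM in AE9a+Meis2, and 6.79 and 4.87 FPKM in AE9a. Both were higher in every AE+Meis2 library than in any AE9a+Meis2 library, as were 7% of all genes. The same held for Eif2ak2 (0.55) and Adar (0.30) of this list. Dhx58 (0.61), Zbp1 (-0.04) and Mavs (-0.47) of the same list overlapped between these groups. Of 4 negative feedback genes, 3 were higher in AE9a+Meis2 than in AE9a (49.8% of all genes). In AE+Meis2, 1 was higher than in AE9a+Meis2 (54.9%) and 3 were higher than in AE9a (55.9%). None passed the threshold in any comparison. In AE+Meis2 minus AE9a, Socs1 was at -1.10, Socs3 at 0.28 and Sh2b3 at 0.02. Usp18, a negative regulator of the receptor that interferon induces, had 63.4, 26.0 and 14.5 FPKM in AE+Meis2 and 8.77, 15.0 and 26.7 FPKM in AE9a+Meis2, against 3.68 and 1.91 FPKM in AE9a. Cmpk2, the gene next to Rsad2 on chromosome 12 (26469117 to 26479837), encodes a nucleotide kinase and had 28.8, 4.8 and 17.4 FPKM in AE+Meis2 and 2.74, 9.07 and 15.0 FPKM in AE9a+Meis2, against 1.09 and 1.56 FPKM in AE9a. Both AE9a libraries were below all others.

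The 8 genes outside the set whose profile over the 8 libraries lay closest to its mean profile were Ifi44, Ifit3, Irf7, Zbp1, Ifi44l, Dhx58, Usp18 and Ifi204, by the root mean square difference of centred log2(FPKM + 1) values among 12556 genes. That difference was 0.311 for Ifi44 and 0.453 for Ifi204, against a median of 1.19 over all genes ranked. The members themselves ranged from 0.249 (Oas3) to 0.785 (Mx1), so Ifi44 lay closer to the mean profile than 8 of the 9 genes that make it up. Ifi44 had 18.3, 11.2 and 7.94 FPKM in AE+Meis2 and 2.66, 7.84 and 12.4 FPKM in AE9a+Meis2, against 2.20 and 0.108 FPKM in AE9a.

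Markers of other marrow cells moved with some of these differences. The summed level of 8 plasmacytoid dendritic cell markers, a cell type known for interferon production, was 71.6 to 94.5 FPKM in AE+Meis2 and 117 to 183 FPKM in AE9a+Meis2, against 53.8 to 57.0 FPKM in AE9a. Most of it was Bst2 and Irf8, which other cells express too. The defining marker Siglech had 1.19, 0.144 and 2.27 FPKM in AE+Meis2 and 0.867, 1.64 and 15.8 FPKM in AE9a+Meis2, against 0.412 and 2.83 FPKM in AE9a, so it was highest in the AE9a+Meis2 library with the highest members and did not separate AE9a from the rest. Of the 7 tested, 6 were higher in AE9a+Meis2 than in AE9a and 2 in AE+Meis2 than in AE9a. Klk1 and Cox6a2 were listed at 0 in some libraries. The summed level of 11 monocyte and macrophage markers was 477 to 737 FPKM in AE+Meis2 and 622 to 2049 FPKM in AE9a+Meis2, against 533 to 549 FPKM in AE9a. The highest of these sums was mostly Ly6c2 (1573 FPKM in AE9a+Meis2 replicate 1), and 6 of the 11 were higher in AE9a+Meis2 than in AE9a, with a median log2 difference of 0.23. The macrophage genes C1qa (-1.52), C1qb (-1.89), C1qc (-1.52) and Vcam1 (-1.43) of that list were lower in every AE9a+Meis2 library than in either AE9a library. Ly6c2 (1.73), Fcgr1 (1.76) and Cd68 (0.84) of the list were higher in every AE9a+Meis2 library than in either AE9a library. Of all genes, 10.7% were lower and 13.1% higher in this way. The summed level of 11 stress and handling genes was 162 to 3337 FPKM in AE+Meis2 and 1315 to 2180 FPKM in AE9a+Meis2, against 143 to 444 FPKM in AE9a, and the 9 of them that were tested were all higher in AE9a+Meis2 than in AE9a, with a median log2 difference of 2.61. That of 8 stroma and endothelium markers was 58.7 to 99.0 FPKM in AE+Meis2 and 26.9 to 51.0 FPKM in AE9a+Meis2, against 97.3 to 116 FPKM in AE9a. Most of the AE9a sums was the single gene Fabp4 (92.5 and 56.2 FPKM). Of the 5 stroma and endothelium genes tested, 1 was higher in AE9a+Meis2 than in AE9a (49.8% of all genes). In AE+Meis2, 3 were higher than in AE9a (55.9% of all genes). Mast cell and basophil markers summed to 986 to 2249 FPKM in AE+Meis2 and 392 to 863 FPKM in AE9a+Meis2, against 733 to 1383 FPKM in AE9a. In AE+Meis2 most of this sum was Cpa3 (1875, 1005 and 849 FPKM). Ms4a2 went the other way, with 226, 4.65 and 58.3 FPKM in AE+Meis2 against 293 and 558 FPKM in AE9a. Of the 5 genes of this list, 3 were higher in AE+Meis2 than in AE9a, against 55.9% of all genes. The part of these cells and of handling in the differences of the 9 genes was not tested.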

How the data were processed

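The authors deposited 1 table of FPKM for 23997 genes in 8 libraries, and the submitters' processing notes name TopHat, Cufflinks, Cuffdiff and build mm10. Their versions and settings are not given in the sources consulted. The libraries were prepared from total RNA with a TruSeq kit, per the labels. FPKM holds no counts, so the depth is unknown and intervals for counting error cannot be had. Members were taken by symbol; groups and replicate numbers come from the titles. Values were taken to log2(FPKM + 1), and the 12565 genes with at least 1 FPKM in at least 2 libraries were fitted with limma 3.58.1 in R 4.3.3, 1 coefficient per group over all 8 libraries, and an intensity trend. The fit had 5 residual degrees of freedom and a prior of 2.28. P-values were adjusted over all genes tested (Benjamini-Hochberg, threshold 0.05), and ± on a log2 difference is the standard error. The fit was run on simulated data with independent noise in each gene, unlike members that vary together, and the outcome is not given here. The genes and lists were chosen with earlier results of these data known. All members are named, with a fixed set of pathway genes, any other pathway gene past the threshold, and the 8 genes nearest in profile. Ifih1, Ddx58, Eif2ak2, Adar, Mavs, Socs1, Socs3, Sh2b3, Oas1c, Oas1d, Oas1e, Oas1f, Oas1h, Ifna14 and Ifnb1 were added after their values were seen. Some pathway genes are not reported here. Same-numbered replicates deviated together by r = -0.025 to 0.133 over 7 pairs, so the numbers were not taken to pair samples. Alternatives were another pseudocount, no filter, other scalings, fewer libraries, no trend and no small RNAs. Plots were drawn with matplotlib 3.10.9 and tables made with pandas 2.3.3 in Python 3.11.15.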

Additional observations from a re-analysis of the deposited data

How the results depend on the processing

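Each comparison was refitted under 17 alternatives, and 0 of the 9 genes passed limma with Benjamini-Hochberg adjustment in any of these fits, as in the fit reported. All 9 stayed above 0 in both comparisons with AE9a under all 17, but single genes moved by over 1.5 times. In AE9a+Meis2 minus AE9a, Oasl1 was 0.077, Oas2 0.961, Oas3 0.829, Mx1 1.509 and Mx2 0.779 without AE9a replicate 2, and Rsad2 was 0.298 and Oas1g 0.789 without both libraries with values in silent families. In AE+Meis2 minus AE9a, Oasl1 was 0.705, Oas2 1.478, Oas3 1.538, Mx1 0.788 and Mx2 1.539 without AE9a replicate 2. Between AE+Meis2 and AE9a+Meis2, 4 values changed sign: Oasl1 was -0.149 without AE+Meis2 replicate 1, and Oas1a, Oas1g and Oas2 were -0.032, -0.228 and -0.033 without AE9a+Meis2 replicate 1. Over all fits that left out 1 library they reached at most 1.094, 0.891, 1.132 and 1.10. Such fits gave medians of 1.16 to 2.50 in AE9a+Meis2 minus AE9a, 0.17 to 1.10 in AE+Meis2 minus AE9a+Meis2 and 1.54 to 2.86 in AE+Meis2 minus AE9a, and a pseudocount of 0.1 gave 2.11, 0.66 and 2.65. With the replicate block the medians were 1.39, 0.63 and 2.10 and 0 members passed, so it changed no call among them.

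Genes called over the whole table were 6, 5 and 4 in the 3 comparisons in that order. In AE9a+Meis2 minus AE9a there were 3 without small RNA entries, 2 with the replicate block, 3 without both libraries with values in silent families, and 2 to 9 on leaving out 1 library. In AE+Meis2 minus AE9a+Meis2 there were 3 without small RNA entries and 6 to 23 on leaving out 1 library. In AE+Meis2 minus AE9a there were 1 with no filter, 2 with only those 2 groups, 0 without small RNA entries, 0 with the replicate block and 1 to 10 on leaving out 1 library.

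Counts of members were also recomputed without the library labelled AE+Meis2 replicate 1, AE9a+Meis2 replicate 3 or either AE9a library, a choice made after seeing the data. AE9a replicate 2 was left out for having the lowest value of 7 members, and had few values in silent families. Where AE9a is left with 1 library, that library is assumed to vary like the other groups. With 1 library left out, members at an unadjusted limma p under 0.05 were 0 to 5 of 9 in AE9a+Meis2 minus AE9a (1.28% to 1.61% of all genes), 0 to 3 in AE+Meis2 minus AE9a+Meis2 (4.28% and 1.92%) and 3 to 7 in AE+Meis2 minus AE9a (1.07% to 4.27%). Without both libraries with values in silent families they were 5 (1.2%), 4 (1.53%) and 8 (1.09%). Members whose libraries did not overlap were 6 to 9 (23.1% to 30.8% of all genes), 0 to 5 (13.8% and 10.1%) and 7 to 9 (16.9% to 26.9%), and without both 9 (36.6%), 5 (10.1%) and 9 (16.9%). The share over all genes is higher than the 13.1%, 7% and 9.96% of the full groups in each of these, since smaller groups overlap less often. Groups of 2 or 3 libraries, with no counts behind the FPKM, limit the precision of every value.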

Other observations

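Ratios between related members within a library are free of scaling between libraries. They were examined after the values were seen and were given no test, and 5 pairs were computed. Mx1 over Mx2 was 2.34, 0.819 and 2.14 in AE+Meis2 and 5.04, 5.00 and 4.69 in AE9a+Meis2, which do not overlap, against 3.18 and 23.1 in AE9a, where Mx2 of replicate 2 was near 0. Oasl2 over Oasl1 was 1.36, 3.06 and 5.93 in AE+Meis2 and 1.16, 2.54 and 2.93 in AE9a+Meis2, against 0.405 and 0.55 in AE9a, so Oasl1 exceeded Oasl2 in AE9a only. Oas1a over Oas1g was 5.46, 3.22 and 2.60 in AE+Meis2 and 6.28, 3.88 and 2.47 in AE9a+Meis2, against 6.52 and 4.70 in AE9a. Oas2 over Oas3 was 1.29, 0.591 and 1.08 in AE+Meis2 and 1.07, 0.983 and 1.20 in AE9a+Meis2, against 0.983 and 0.41 in AE9a. Rsad2 over its neighbour Cmpk2 was 2.28, 2.49 and 0.773 in AE+Meis2 and 1.04, 0.417 and 0.802 in AE9a+Meis2, against 1.5 and 1.59 in AE9a.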
